A study of Homo sapiens with 12 samples.

Results

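The nuclear subunit genes of respiratory complexes II to V were followed in cultured human embryonic stem cells by RNA sequencing. The 40 genes came from a list of symbols and were kept where the symbol stood in the table of counts. They were 4 genes of complex II, 9 of complex III, 11 of complex IV and 16 of complex V, out of 28278 genes in the table, and they lie on 20 chromosomes. All 40 passed a filter on low counts that kept 15916 genes for testing. Subunits encoded by the mitochondrial genome were not analysed here.

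The cells were of the WA26 line, either wild type (WT) or with UBQLN1 knocked out by CRISPR/Cas9 (KO). Ubiquilin 1, its product, is a protein quality control factor with domains that bind ubiquitin and the proteasome. The 4 groups, with 2 libraries each, were WT at normal O2, KO at normal O2 (both untreated), KO at 5% O2, and KO given N-acetylcysteine (NAC), an antioxidant that also supplies cysteine. WT cells at 5% O2 and WT cells with NAC were not analysed here. The study describes 2 clones for each genotype, but the labels name no clone, no vehicle for NAC and no oxygen level for the NAC samples, and the study's text and its scheme give different lengths of time at 5% O2. The scheme has NAC given over several passages with DMSO as the control, while the untreated libraries carry no label of vehicle or passage. Any part of vehicle or passage number in the NAC comparisons cannot be told apart from that of NAC. If the replicates of a group are repeats of the same culture, the p-values measure only the spread between these samples.

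Replicates 1 and 2 held 32591050 and 37650859 counts in WT cells and 35019694 and 39349967 counts in untreated KO cells. The libraries at 5% O2 held 41639350 and 32759193 counts, and those with NAC 40803323 and 31236968. Levels are given below in CPM, counts relative to the scaled size of each library. UBQLN1 itself stood at 221 and 197 CPM in the WT libraries, 42.3 and 43.5 in untreated KO cells, 51.9 and 47.7 at 5% O2 and 62.4 and 49.3 with NAC. All 6 KO libraries were far below both WT libraries, and some UBQLN1 RNA was counted in each of them. The log2 fold change of untreated KO against WT was −2.29 ± 0.12 (SE; adjusted p = 2.5e-06).

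All 10 embryonic stem cell markers searched for were above 1 CPM in all 8 libraries. Their summed level was 7780 and 7750 CPM in WT cells, 7710 and 7430 in untreated KO cells, 7300 and 7240 at 5% O2 and 7140 and 6450 with NAC. DNMT3B was the most abundant of them in 7 libraries, and LIN28A in replicate 1 with NAC. Against untreated KO cells, 3 of the 10 were higher and 3 lower with NAC, against 23.8% and 20.8% of all genes. Without that replicate 3 were higher and 5 lower, against 21.2% and 19.7%. DPPA4 (0.70), ZFP42 (0.61) and TDGF1 (0.26) rose, and L1TD1 (−0.68) and NANOG (−0.31) fell. DNMT3B fell from 2550 and 2460 CPM to 1140 and 1420 with NAC (−0.97 ± 0.10, adjusted p = 2.7e-05).

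Replicate 1 of the KO cells with NAC stood apart from the other 7 libraries by mesenchymal and fibroblast markers. All 13 of these had counts there and 12 were above 1 CPM, against 7 above 1 CPM in each other library. Their summed level was 605 and 617 CPM in WT cells, 636 and 664 in untreated KO cells, 564 and 588 at 5% O2, and 1090 and 589 with NAC. THY1, which stem cells also express, was the most abundant gene of the list in all 8 libraries. The matrix proteoglycan genes DCN and LUM stood at 47.2 and 3.86 CPM in that library and at 0 in the other 7, where a count of 0 allows at most 0.1 CPM. COL3A1, a fibrillar collagen gene, stood at 29.1 CPM there, at 0.207 in WT replicate 2 and at 0 in the other 6. With NAC against untreated KO cells, 3 of 9 tested markers of this list were higher and 0 lower, against 23.8% and 20.8% of all genes. Their median log2 fold change was 0.41, and −0.02 without that library. The part of these transcripts in the results below was not tested, and the main counts of members called with NAC are given with and without that library.

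Of the neuroectoderm markers, 5 or 6 of 6 had counts in each library, and the sum ranged from 129 CPM in NAC replicate 1 to 247 in untreated KO replicate 2. ZIC1 was the most abundant in all 8 libraries and PAX6 was at 0 in 3 of them. With NAC against untreated KO cells, 2 of 5 tested were lower and 0 higher (median −0.93), against 20.8% and 23.8% of all genes, and 2 were lower and 1 higher without replicate 1, against 19.7% and 21.2%. In edgeR 3 were lower and 0 higher at an unadjusted p under 0.05. Of the mesendoderm markers, 5 to 7 of 8 had counts, with a sum of 4.05 to 11.4 CPM, GSC or MIXL1 as the most abundant gene and SOX17 at 0 in all 8 libraries. With NAC, 1 of 5 tested (MIXL1) was lower, and the median was −0.46. Without replicate 1, 1 of 7 was lower, with a median of −0.39. Their part in the results was not tested.

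In the inner mitochondrial membrane, complex II passes electrons from succinate to ubiquinone, complex III passes them on to cytochrome c, and complex IV hands them to oxygen. Complexes III and IV pump protons as they do so, and complex V, the ATP synthase, uses the proton gradient to make ATP. Pluripotent stem cells rely strongly on glycolysis but keep these complexes, and every subunit of complex II and most subunits of the others are made from nuclear genes.

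Per kilobase of transcript, the scale used here to compare one gene with another, the median level of the 40 genes in WT cells was 153 CPM. It was 81.5 for complex II, 94.4 for complex III, 286 for complex IV and 167 for complex V, and differences between complexes were not tested. ATP5F1B, the catalytic beta subunit of ATP synthase, had the highest level per kilobase in WT cells, at 870 CPM, followed by COX6A1 at 599. ATP5F1E, the epsilon subunit of the same enzyme, had the lowest, at 0.1103 CPM per kilobase, with 11 to 32 counts in a library. Every other member had at least 1743 counts in each library. The reason for this gap was not tested, so the values of ATP5F1E here may not describe its true expression. The reference transcripts of UQCRB, ATP5F1A and ATP5F1E are unusually long (8459, 5761 and 3610 bases), which lowers their values per kilobase.

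Together the 40 genes took 0.920% and 0.963% of all counts in WT cells and 0.798% and 0.824% in untreated KO cells. They took 0.967% and 0.936% at 5% O2, and 1.210% and 1.207% with NAC. The 95% Wilson intervals cover counting error only. They were 0.917% to 0.923% in WT replicate 1, 0.959% to 0.966% in WT replicate 2 and 0.821% to 0.827% in untreated KO replicate 2, for example. Those of the WT replicates did not overlap, so the intervals do not measure the spread between libraries of a group. The share was lowest in both untreated KO libraries, highest in both NAC libraries, and similar in WT cells and in KO cells at 5% O2. In bulk RNA, fewer cells of a type and less RNA per cell cannot be told apart. Cytosolic ribosomal protein genes followed the same order, with 8.006% and 8.938% of counts in WT cells, 7.057% and 7.578% in untreated KO cells, 8.962% and 8.549% at 5% O2 and 10.752% and 10.496% with NAC.

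**Figure D1:**
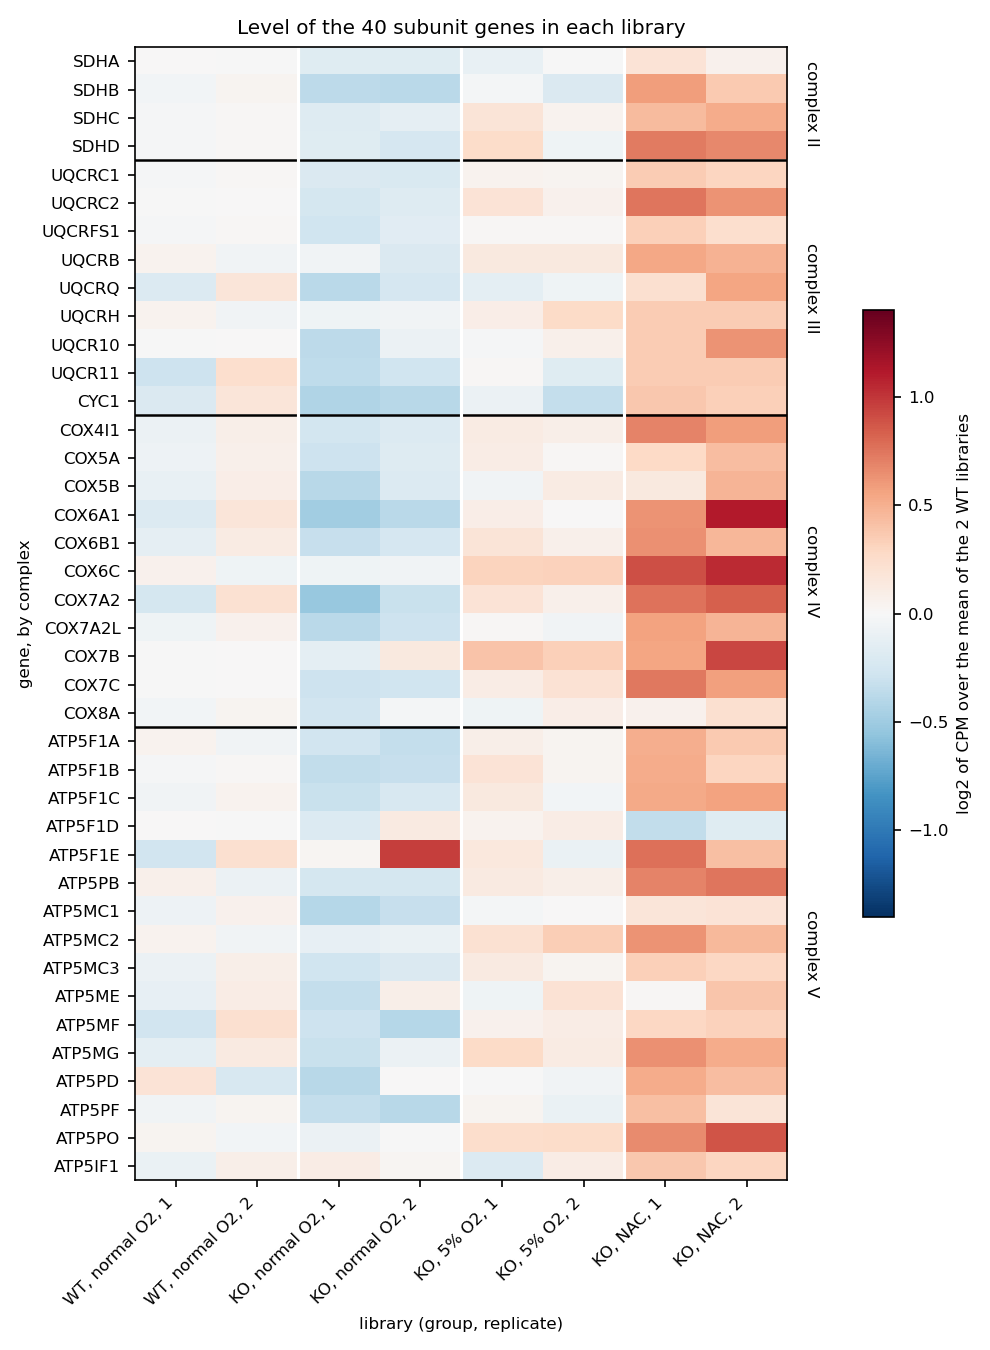
Level of each of the 40 subunit genes in each of the 8 libraries, as log2 of its CPM over the mean of the 2 WT libraries, with genes grouped by complex and libraries by group. The median of the 40 genes was −0.28 and −0.19 in the untreated KO libraries, 0.10 and 0.05 at 5% O2, and 0.51 and 0.45 with NAC.

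The first comparison sets untreated KO cells against WT cells at normal O2. Most members had a lower mean in untreated KO than in WT cells, by modest amounts, and edgeR called 0 of 40 lower and 0 higher at an adjusted p under 0.05. Across all 15916 genes, 0.622% were called lower and 1.34% higher. Of the 40 log2 fold changes 37 were negative, with a median of −0.22 against 0.00 over all genes tested. At an unadjusted p under 0.05, 23 members were lower and 0 higher, against 8.12% and 9.50% of all genes. DESeq2, run on the same genes, called 10 members lower and 0 higher, against 2.08% and 3.59% of all genes. Both KO libraries lay below both WT libraries for 28 members and above them for 0, against 27.0% and 27.7% of all genes.

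By complex, the median log2 fold change of KO against WT was −0.19 in complex II, −0.22 in complex III, −0.28 in complex IV and −0.22 in complex V. In complex II, SDHB, the iron-sulfur subunit that relays electrons, stood at 72.2 and 76.1 CPM in WT and 57.5 and 57.3 in KO cells (log2 fold change −0.37 ± 0.10, adjusted p = 0.0959). In complex III, CYC1, the cytochrome c1 that gives electrons to cytochrome c, stood at 299 and 387 CPM in WT and 255.5 and 262.3 in KO cells (−0.41 ± 0.12, adjusted p = 0.11). In complex IV, COX6A1, the isoform of subunit VIa found outside muscle, stood at 282 and 362 CPM in WT and 230 and 248 in KO cells (−0.43 ± 0.15, adjusted p = 0.159). For these genes both KO libraries were below both WT libraries, and for CYC1 and COX6A1 the WT libraries themselves lay far apart.

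The smallest adjusted p among the 40 members, 0.0567, was that of ATP5MC1, which encodes the c subunit of the membrane ring of ATP synthase. It stood at 122 and 134 CPM in WT and 97.4 and 102 in KO cells, with no overlap (−0.36 ± 0.09). At the other end of each complex were SDHC at −0.15 ± 0.09, UQCRH at −0.06 ± 0.08, COX7B at 0.01 ± 0.13 and ATP5F1E at 0.57 ± 0.58. SDHC anchors complex II in the membrane, UQCRH is the hinge protein beside cytochrome c1, and COX7B is a small structural subunit of complex IV. ATP5IF1, the inhibitor that stops ATP synthase from running in reverse, was the third member with a positive value (0.06 ± 0.11), and the KO and WT libraries overlapped for all 3. Without WT replicate 2, and without KO replicate 1, the number lower at an unadjusted p under 0.05 was 9, against 4.57% and 3.64% of all genes.

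**Figure D2:**
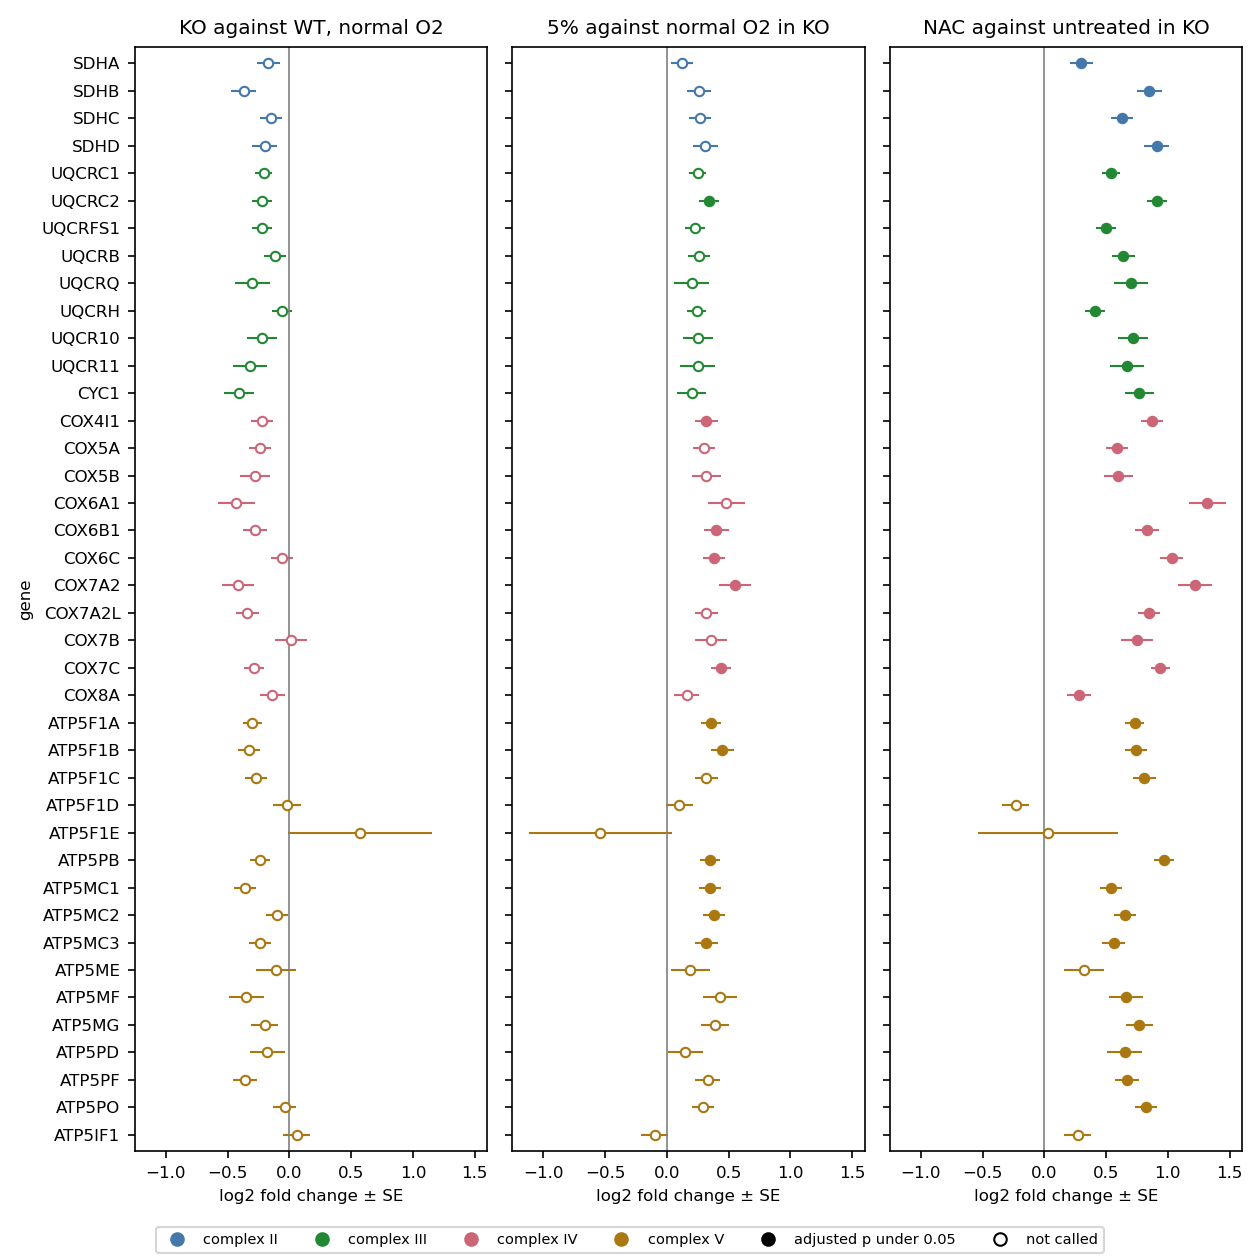
Log2 fold change of each of the 40 genes with its SE in KO against WT at normal O2, 5% against normal O2 in KO, and NAC against untreated in KO, coloured by complex and filled where the adjusted p was under 0.05. Medians were −0.22, 0.31 and 0.69, and 0, 12 and 36 of the 40 points are filled.

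The next comparison sets KO cells at 5% O2 against untreated KO cells. It uses the same untreated KO libraries as the comparison above and as the NAC comparison below, so the 3 are not independent. At 5% O2, 12 of the 40 members were called higher in edgeR and 0 lower, against 3.68% and 4.13% of all genes. At an unadjusted p under 0.05, 29 were higher and 0 lower, against 12.4% and 12.4% of all genes. DESeq2 called 25 of 39 higher and 0 lower, against 7.7% and 7.89% of all genes. The median log2 fold change was 0.31, against 0.00 over all genes, and 38 values were positive. Both libraries at 5% O2 lay above both at normal O2 for 34 members, against 30.7% of all genes. The called members were 0 of 4 in complex II, 1 of 9 in complex III, 5 of 11 in complex IV and 6 of 16 in complex V, with medians of 0.27, 0.25, 0.36 and 0.33.

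In complex IV, COX7A2, the isoform of subunit VIIa found outside muscle, had the highest value. It stood at 91.6 and 106 CPM at normal O2 and 151 and 139 CPM at 5% O2 (0.55 ± 0.13, adjusted p = 0.0329). COX7C, a small membrane subunit, stood at 259 and 262 CPM at normal O2 and 342 and 365 at 5% O2 (0.44 ± 0.08, adjusted p = 0.0145). The libraries of the 2 conditions did not overlap for either gene. Also called were COX4I1, the ubiquitous isoform of the subunit through which ATP regulates the enzyme, COX6B1, which faces the intermembrane space, and COX6C, another small membrane subunit, at 0.32 to 0.40. COX8A, the smallest nuclear subunit, had the lowest value, 0.16 ± 0.10 (adjusted p = 0.375). With the length and GC trend removed, 0 of the 5 members named as called here kept the call. COX7A2 then stood at 0.36, COX6B1 at 0.32, COX4I1 at 0.20, COX7C at 0.11 and COX6C at 0.03.

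In complex V, the catalytic ATP5F1B stood at 1209 and 1224 CPM at normal O2 and 1753 and 1572 at 5% O2 (0.45 ± 0.09, adjusted p = 0.0160). ATP5F1A, the alpha subunit that alternates with it in the head of the enzyme, stood at 935 and 897 CPM at normal O2 and 1190 and 1155 at 5% O2 (0.36 ± 0.08, adjusted p = 0.0238). Both libraries at 5% O2 were above both at normal O2 for each of these abundant genes. The 3 genes that encode the same mature c subunit of the ring, ATP5MC1, ATP5MC2 and ATP5MC3, rose as well (0.35, 0.38 and 0.32), as did ATP5PB, the b subunit of the peripheral stalk (0.35). ATP5F1E (−0.54 ± 0.58) and ATP5IF1 (−0.10 ± 0.11) were the members with negative values, neither of them called.

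In complex III the called member was UQCRC2, a core protein on the matrix side, which stood at 196 and 205 CPM at normal O2 and 266 and 243 at 5% O2 (0.34 ± 0.08, adjusted p = 0.0334). This call was lost when any 1 of the 4 libraries was left out and when the length and GC trend was removed. The lowest value in that complex was that of CYC1, 0.20 ± 0.12. In complex II, SDHD, a membrane anchor, had the highest value (0.31 ± 0.10, adjusted p = 0.0896) and SDHA, the flavoprotein that oxidises succinate, the lowest (0.12 ± 0.09, adjusted p = 0.432). The calls rested on all 4 libraries: without untreated KO replicate 1 or 2, or replicate 1 at 5% O2, edgeR called 0 members higher, with 19, 26 and 21 higher at an unadjusted p under 0.05, against 7%, 7.55% and 6.2% of all genes. Without replicate 2 at 5% O2 it called 2, with 27 unadjusted, against 10.1% of all genes. The share of all genes called higher at an adjusted p under 0.05 in the 4 fits was 0.175%, 0.254%, 0.188% and 1.43%, and the median of the members stayed between 0.27 and 0.36.

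NAC against untreated KO cells gave the most calls of the 5 comparisons made. Of the 40 members 36 rose and 0 fell against untreated KO cells, while 23.8% of all genes rose and 20.8% fell in edgeR. At an unadjusted p under 0.05, 37 were higher and 0 lower, against 27.2% and 24.1% of all genes. DESeq2 called 36 higher and 0 lower, against 22.4% and 22.1% of all genes. The median log2 fold change was 0.69, against 0.02 over all genes. Both NAC libraries lay above both untreated libraries for 37 members, against 36.2% of all genes. All members of complexes II, III and IV were called, 4, 9 and 11 genes with medians of 0.74, 0.67 and 0.85, and so were 12 of the 16 of complex V, with a median of 0.65. By the study's criterion, a log2 fold change over 1 with an unadjusted p under 0.05, 3 members were higher in edgeR (COX6A1, COX7A2 and COX6C), against 3.63% of all genes. The study took its values from DESeq2, which gave 2 (COX6A1 and COX7A2), against 2.78% of all genes. Without NAC replicate 1, 36 members were again called higher, 35 of them the same and ATP5ME in place of SDHA, with a median of 0.67 and 21.2% of all genes. By complex they were 3 of 4, 9 of 9, 11 of 11 and 13 of 16, with medians of 0.70, 0.67, 0.81 and 0.58.

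COX6A1 had the highest value of the 40. It stood at 230 and 248 CPM in untreated cells and 498 and 694 CPM with NAC, a 2.49-fold difference of the means (1.32 ± 0.15, adjusted p = 4.3e-05). COX7A2 stood at 91.6 and 106 CPM untreated and 224 and 236 with NAC (1.22 ± 0.14, adjusted p = 3.9e-05). COX6C stood at 62.2 and 62.3 CPM untreated and 121 and 133 with NAC (1.03 ± 0.09, adjusted p = 1.8e-05). In all 3 genes both NAC libraries were above every other library, and for COX6A1 they were themselves far apart, with the higher level in replicate 2. Without replicate 1 COX6A1 was at 1.53 and COX6C at 1.10, and all 3 genes were called.

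Of the other complex IV genes, COX7C (0.94), COX4I1 (0.87) and COX7A2L (0.85) came next. COX7A2L encodes a relative of COX7A2 that links complexes III and IV into supercomplexes. COX6B1, COX7B, COX5B and COX5A followed at 0.83, 0.75, 0.60 and 0.59. COX5A and COX5B are structural subunits around the catalytic core. COX8A was lowest, at 204.5 and 241.6 CPM untreated and 257 and 287 with NAC (0.28 ± 0.10, adjusted p = 0.0403), a small difference with no overlap between the groups. Its call was lost in 5 of 14 alternatives, among them the fits without untreated KO replicate 1 (0.17) and without NAC replicate 2 (0.20). It was 0.36 and called without NAC replicate 1.

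In complex V, the b subunit gene ATP5PB stood at 208 and 208 CPM untreated and 398 and 415 CPM with NAC (0.97 ± 0.08, adjusted p = 1.6e-05), with the groups far apart, and 0.99 without replicate 1. The other peripheral stalk genes, ATP5PO (the subunit that confers oligomycin sensitivity), ATP5PF and ATP5PD, rose by 0.82, 0.67 and 0.65. The call of ATP5PD was lost without untreated KO replicate 1 and with the length and GC trend removed (0.11). In the catalytic head and its shaft, ATP5F1C (gamma), ATP5F1B (beta) and ATP5F1A (alpha) rose by 0.81, 0.74 and 0.73. The ring genes ATP5MC2, ATP5MC3 and ATP5MC1 rose by 0.65, 0.56 and 0.54, and the membrane subunits g and f, ATP5MG and ATP5MF, by 0.77 and 0.66.

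The 4 members not called with NAC were all of complex V. ATP5F1D, the delta subunit at the foot of the head, was the only 1 of the 40 with a negative value. It stood at 134 and 165 CPM untreated and 120 and 135 with NAC (−0.23 ± 0.11, adjusted p = 0.108), and the groups overlapped. ATP5ME, the membrane subunit e, stood at 57.5 and 76.8 CPM untreated and 73.5 and 94.8 with NAC (0.32 ± 0.16, adjusted p = 0.120), also overlapping. ATP5IF1 stood at 72.3 and 68.5 CPM untreated and 87.2 and 83.2 with NAC (0.27 ± 0.11, adjusted p = 0.0681), with both NAC libraries above. The few counts of ATP5F1E gave 0.407 and 0.777 CPM untreated and 0.679 and 0.534 with NAC (0.03 ± 0.57), a range that the depth cannot resolve. ATP5F1D was called lower without untreated KO replicate 1 and without NAC replicate 2, and it stood at −0.15 (adjusted p = 0.346) without NAC replicate 1.

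In complex III, UQCRC2 stood at 196 and 205 CPM untreated and 391 and 361 with NAC (0.91 ± 0.08, adjusted p = 1.9e-05). CYC1 stood at 255.5 and 262.3 CPM untreated and 446 and 434 with NAC (0.77 ± 0.12, adjusted p = 3.2e-04). For both genes the NAC libraries were well above the untreated ones, and without replicate 1 UQCRC2 was 0.84. The small subunits UQCR10, UQCRQ, UQCR11 and UQCRB rose by 0.72, 0.70, 0.67 and 0.64. The core protein UQCRC1 rose by 0.54 and the Rieske iron-sulfur protein UQCRFS1 by 0.50. UQCRH was lowest, at 260 and 263 CPM untreated and 347 and 346 with NAC (0.41 ± 0.08, adjusted p = 0.00203).

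In complex II, SDHD stood at 110 and 105 CPM untreated and 205 and 198 with NAC (0.91 ± 0.10, adjusted p = 4.7e-05), and SDHB and SDHC rose by 0.85 and 0.63. SDHA was lowest, at 123 and 123 CPM untreated and 158 and 144 with NAC (0.30 ± 0.09, adjusted p = 0.0132). All untreated libraries were below all NAC libraries for these 4 genes. Without NAC replicate 1, SDHA stood at 0.23. Its call was lost in that fit, and also without untreated KO replicate 1 or replicate 2.

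Because these genes rose together, their promoters were read for short motifs of NRF1, GABPA and YY1, factors known to bind promoters of respiratory genes. RefSeq (GRCh38.p14) gave windows of 300 bases, 250 before the start and 50 after, for 32 of the 40 members; SDHC, UQCRB, CYC1, COX6C, ATP5F1B, ATP5F1D, ATP5MC3 and ATP5MF had none. The motifs, searched on both strands, were GCGCANGCG for NRF1, CCGGAAG for GABPA and AANATGGCG for YY1. None of the 3 contains another. The NRF1 letters stood in the windows of 12 of the 32 members (37.5%), against 15.5% of 11750 tested genes and 9.02% of all 27305 genes with a window. Those of GABPA stood in 15 (46.9%, against 20.3% and 12.2%) and those of YY1 in 6 (18.8%, against 7.19% and 3.85%). At least 1 of them stood in 22 members (68.8%, against 36.4% and 21.5%). A match describes the letters and is not a shown binding site. Only exact letters were counted, so a window without them may still hold a variant of a motif.

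By complex, at least 1 motif stood in 3 of 3 members of complex II, 6 of 7 of complex III, 5 of 10 of complex IV and 8 of 12 of complex V. The stretches below, 90 bases before to 30 after the start on the plus strand, are of the member with the highest log2 fold change with NAC in each complex among those with a window, and of COX8A, the lowest of complex IV. Capitals mark GABPA letters, read on the opposite strand as CTTCCGG, and YY1 letters. They lie at chr11:112086783-112086902 for SDHD, chr16:21953271-21953390 for UQCRC2, chr12:120438023-120438142 for COX6A1, chr1:111449374-111449493 for ATP5PB and chr11:63974530-63974649 for COX8A.
SDHD: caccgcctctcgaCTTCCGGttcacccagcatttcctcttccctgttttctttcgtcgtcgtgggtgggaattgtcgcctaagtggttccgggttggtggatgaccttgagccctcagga
UQCRC2: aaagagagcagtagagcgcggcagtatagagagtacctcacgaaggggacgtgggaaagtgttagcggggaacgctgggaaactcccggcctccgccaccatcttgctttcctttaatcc
COX6A1: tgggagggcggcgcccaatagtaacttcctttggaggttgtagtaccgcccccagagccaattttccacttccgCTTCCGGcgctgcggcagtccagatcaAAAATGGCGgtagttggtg
ATP5PB: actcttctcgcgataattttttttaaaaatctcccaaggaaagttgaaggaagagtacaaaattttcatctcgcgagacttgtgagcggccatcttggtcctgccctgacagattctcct
COX8A: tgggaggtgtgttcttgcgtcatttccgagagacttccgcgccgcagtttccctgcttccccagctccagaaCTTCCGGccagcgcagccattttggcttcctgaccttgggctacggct

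Members with and without the letters both rose with NAC. UQCRC2 and ATP5PB hold none of the 3 motifs in their whole windows and rose by 0.91 and 0.97, while COX8A holds the GABPA letters and stood at 0.28. COX7A2 (1.22) and COX7C (0.94) also hold none, and ATP5ME (0.32), which was not called, holds NRF1 and GABPA letters. In the other direction, COX6A1 holds all 3 and rose by 1.32, and ATP5IF1 (0.27) holds none and was not called. ATP5F1E (0.03) holds none and was not called either, but it had too few counts to be informative. The difference between members with and without the letters was not tested. The RefSeq start of ATP5PB lies 600 bases from that of the reference transcript used for its length, so its window may describe another start. The distance was 49, 73, 23 and 0 bases for SDHD, UQCRC2, COX6A1 and COX8A. COX6A1 and SDHD hold NRF1 letters as well, 1 and 2 times, farther from the start than the stretches shown.

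Transcript length and base composition moved with the NAC result across the whole table. The 40 members have short reference transcripts, with a median of 1058 bases (303 to 8459) against 3234 over all genes tested, and a median GC content of 46.7% (38.4% to 69.5%) against 49.0%. Across all 15463 tested genes with both values, Spearman's correlation of the log2 fold change with NAC was −0.49 with GC content and −0.25 with length. Across the 40 members it was −0.29 with GC content and −0.03 with length. These are correlations across genes, which are not independent replicates.

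In 5 bins of equal size from low to high GC content, all tested genes had median log2 fold changes with NAC of 0.49, 0.26, −0.02, −0.22 and −0.42. The members in the same bins, 9, 10, 9, 10 and 2 genes, had medians of 0.85, 0.70, 0.70, 0.60 and 0.27. In all 5 bins the median of the members was above that of all genes, and the last bin holds only CYC1 and ATP5F1D. ATP5F1D has the highest GC content of the 40, at 69.5%.

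**Figure D3:**
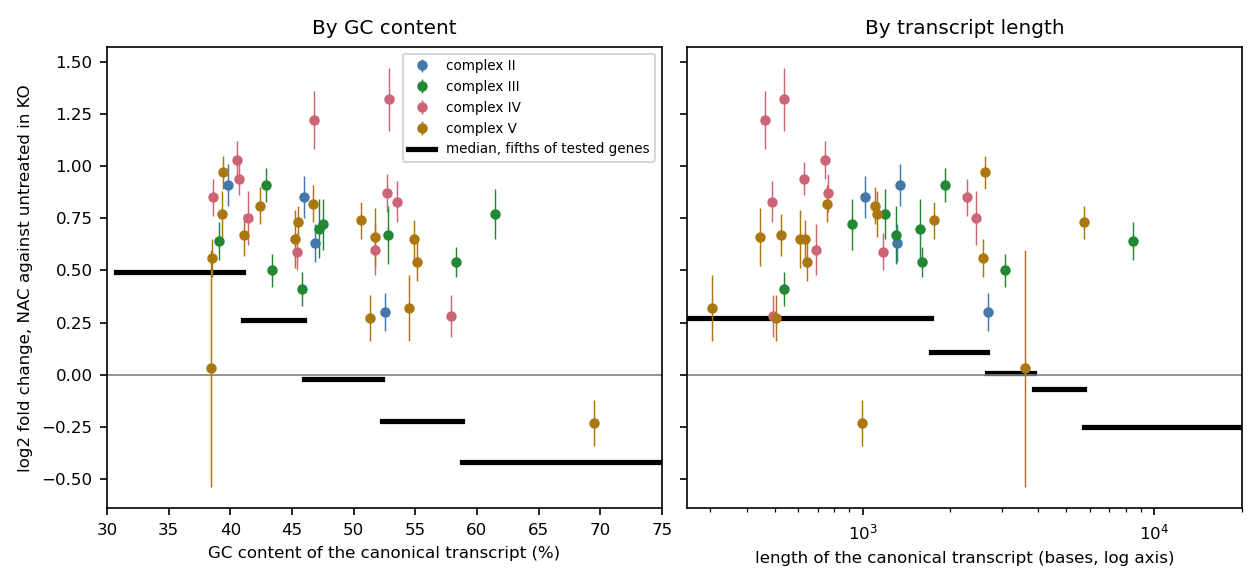
Log2 fold change with its SE of NAC against untreated KO cells for each of the 40 genes, by GC content (left) and length on a log axis (right) of its reference transcript. Black bars are medians of all tested genes in 5 bins of equal size, from 0.49 at low to −0.42 at high GC content and from 0.27 for short to −0.25 for long transcripts.

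With each library's smooth dependence on the length and GC content of transcripts removed before the test, 21 members were called higher with NAC and 0 lower, against 15.1% of all genes higher, and 24 and 0 at an unadjusted p under 0.05 in edgeR, against 21.4% and 16.2%. The median of the members was 0.33, less than before. By complex, 3 of 4, 5 of 9, 6 of 11 and 7 of 16 were called, with medians of 0.30, 0.40, 0.27 and 0.20. COX6A1 (1.13), CYC1 (0.89), ATP5F1A (0.88), COX7A2 (0.78), COX6B1 (0.67) and COX4I1 (0.66) were the called members with the highest values.

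Others lost most of their value. SDHD went to 0.11, COX7C to 0.13, COX7A2L to 0.15, ATP5F1C to 0.14 and COX6C to 0.20, and none of these was called. The sign turned for 6 members: UQCRH (−0.10), ATP5MC3 (−0.10), ATP5MG (−0.09), ATP5PF (−0.11), ATP5F1E (−0.47) and ATP5F1D (0.11). With NAC replicate 1 left out too, a fit added once the values had been seen, the count was 25 of 40 with a median of 0.37, against 15.3% of all genes.

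**Figure D4:**
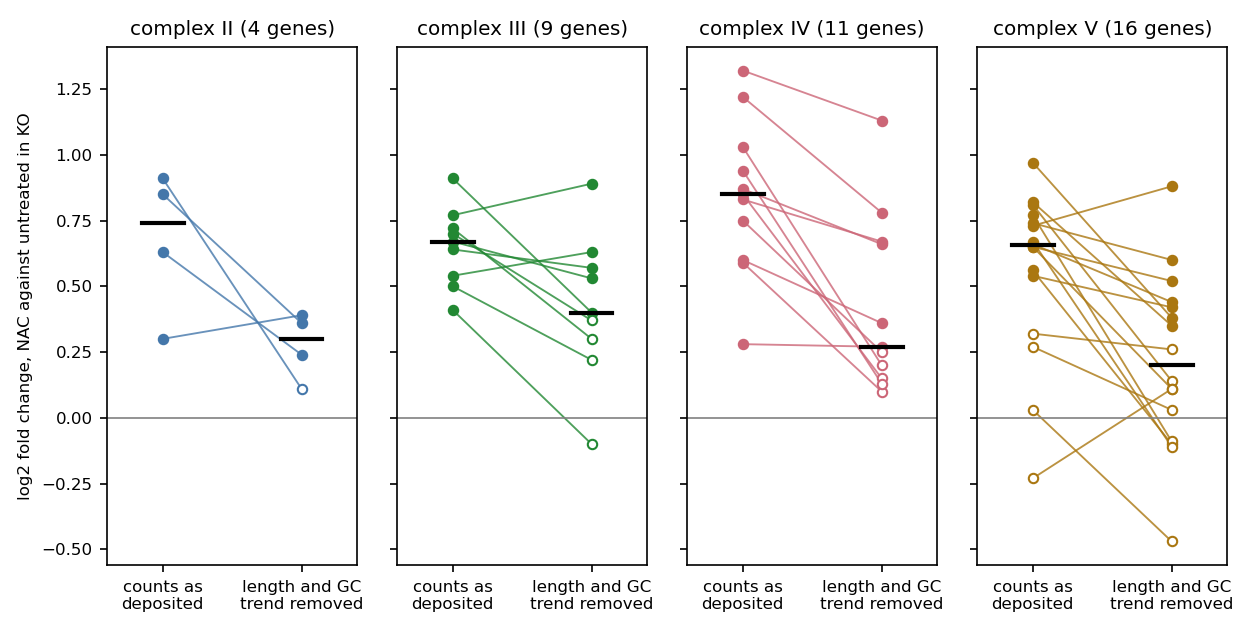
Log2 fold change of NAC against untreated KO cells for each gene, in 1 panel per complex, from the counts as deposited and after removal of the length and GC trend. Points are filled where the adjusted p was under 0.05 and black bars are medians, which went from 0.74, 0.67, 0.85 and 0.65 to 0.30, 0.40, 0.27 and 0.20 in complexes II to V.

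The same removal left 2 members called higher at 5% O2, ATP5F1A (0.44 ± 0.07, adjusted p = 0.00911) and ATP5F1B (0.38 ± 0.08, adjusted p = 0.0331), against 1.68% of all genes, with a median of 0.14. In KO against WT cells it gave 1 member called lower, ATP5F1A (−0.37 ± 0.07, adjusted p = 0.0274), against 0.641% of all genes, with a median of −0.12. At an unadjusted p under 0.05 in edgeR, 13 members were then higher at 5% O2, against 11% of all genes. In KO against WT cells 12 were lower, against 8.18%. Before the removal ATP5F1A stood at 0.36 at 5% O2 and −0.30 in KO against WT cells. Its reference transcript, whose length the removal used, is unusually long (5761 bases). The alpha subunit gene stood at 1163 and 1092 CPM in WT cells and at 935 and 897 in untreated KO cells. Both libraries at 5% O2 were above both untreated KO libraries, and the NAC libraries were highest, at 1598 and 1450 CPM.

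Copies of a gene elsewhere in the genome can take reads from it, as reads that map to several places are not counted at the counting program's defaults. Of the 31-base words in a member's transcript, between 0% (6 members) and 75.3% (SDHC) also occurred elsewhere on the chromosomes. The share was 68.8% for COX6A1, 66.6% for SDHD and 49.7% for UQCRH. Of the 10 members with at least 25%, 10 were called higher with NAC, with a median of 0.69, and of the 9 with under 1%, 6 were, with a median of 0.54, against 23.8% of all genes. Without replicate 1 the numbers were 9 of 10 (SDHA was not called) and 7 of 9, against 21.2% of all genes. Spearman's correlation of the share with the log2 fold change with NAC was 0.19 across the 40 genes.

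NAC was also set against 5% O2 directly, both in KO cells. These libraries differ in NAC and may differ in oxygen level and length of treatment, and these parts cannot be told apart. Here 30 members were higher and 1 lower with NAC, against 15.5% and 13.6% of all genes, with a median of 0.39 against 0.04 over all genes. In complexes II to V, 3 of 4, 8 of 9, 9 of 11 and 10 of 16 were higher, with medians of 0.48, 0.43, 0.50 and 0.35. The leading members were SDHD (0.60 ± 0.10), CYC1 (0.57 ± 0.12), COX6A1 (0.84 ± 0.15) and ATP5PB (0.62 ± 0.08), with adjusted p of 0.00194, 0.00520, 0.00199 and 5.9e-04. The lowest were SDHA (0.18), UQCRH (0.17), COX8A (0.13) and ATP5F1D.

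ATP5F1D was the member that fell. It stood at 157 and 164 CPM at 5% O2 and 120 and 135 with NAC (−0.33 ± 0.11, adjusted p = 0.0388), with no overlap. The count of members higher was 24 without NAC replicate 1, 18 without replicate 1 at 5% O2 and 12 without replicate 2 at 5% O2, against 13.4%, 9.71% and 3.83% of all genes, and in those 3 fits ATP5F1D was not called. The first of these fits gave 3 of 4, 6 of 9, 10 of 11 and 5 of 16 members in complexes II to V. With the length and GC trend removed, 10 members were higher, against 7.98% of all genes, and 0 lower. Of the leading members, COX6A1 (0.75) and CYC1 (0.64) were then called, and ATP5PB (0.24) and SDHD (0.12) were not.

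Against untreated WT cells, 31 members were higher in KO cells with NAC and 0 lower, while 20.6% of all genes were higher and 17.6% lower. At an unadjusted p under 0.05, 34 were higher and 1, ATP5F1D, lower, against 25% and 21.9% of all genes. The median was 0.48, against 0.02 over all genes. In complexes II to V, 3 of 4, 8 of 9, 9 of 11 and 11 of 16 were higher, with medians of 0.48, 0.36, 0.64 and 0.42. COX6C led, at 67.4 and 62.0 CPM in WT cells and 121 and 133 with NAC (0.97 ± 0.09, adjusted p = 7.1e-05), followed by COX6A1 at 0.89. In the other complexes ATP5PO (0.78 ± 0.09), SDHD (0.70 ± 0.10) and UQCRC2 (0.69 ± 0.08) were highest.

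The lowest values were those of UQCRFS1 (0.29), COX8A (0.14), SDHA (0.13) and ATP5F1D (−0.25 ± 0.11, adjusted p = 0.0875). DESeq2 called 32 members higher and 1, ATP5F1D, lower, against 19.6% and 19.5% of all genes. Without NAC replicate 1, 28 members were higher, 27 of them the same, against 18.8% of all genes. With the length and GC trend removed 14 were higher, against 11.9% of all genes. Of the members with the highest values, COX6A1 (0.82), ATP5PO (0.47), COX6C (0.36) and UQCRC2 (0.29) were then called, and SDHD (0.10) was not. These libraries differ in both genotype and treatment, and the parts of the 2 cannot be told apart in this comparison.

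Other genes of the pathway were read from lists beside the members. Muscle, lung and testis isoforms of complex IV were near absent: COX8C had 0 counts in all 8 libraries, COX4I2, COX6A2, COX7A1 and COX7B2 stood at 0.339 CPM or less, and COX6B2 at 0.334 to 1.68 CPM. Of 7 tested genes outside the list of members 5 rose with NAC, against 23.8% of all genes: NDUFA4 of complex IV by 0.76, the ATP synthase genes ATP5MPL and ATP5MD by 0.80 and 0.68, the UQCRH relative UQCRHL by 1.16, and CYCS, cytochrome c itself, by 0.81. Without replicate 1 the same 5 genes were called, at 0.78 to 1.21. With the length and GC trend removed UQCRHL (0.90), CYCS (0.67) and ATP5MPL (0.26) were called and NDUFA4 (0.06) and ATP5MD (0.17) were not, and the median of the 7 went from 0.76 to 0.17. At 5% O2, UQCRHL (0.65), ATP5MPL (0.39) and ATP5MD (0.37) rose, and NDUFA4 (0.19) and CYCS (0.26) were not called. With the trend removed the first 3 stood at 0.60, 0.14 and 0.13, and edgeR called none of the 3.

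Counts in the lists below stand against 23.8% of all genes higher and 20.8% lower with NAC and 3.68% and 4.13% at 5% O2. With the trend removed the shares higher were 15.1% with NAC and 1.68% at 5% O2, and without NAC replicate 1 the share higher with NAC was 21.2%. Of 37 nuclear subunits of complex I, 28 rose and 0 fell with NAC (median 0.69), and 6 rose at 5% O2. Leaving out NAC replicate 1, 26 rose, and with the length and GC trend removed 20 rose with NAC and 3 at 5% O2. Of 41 tested assembly factors of complexes II to V, 28 rose and 1 fell with NAC (median 0.56), and 3 rose at 5% O2. Leaving out NAC replicate 1, 26 of 42 rose and 1 fell, and with the trend removed 18 rose with NAC and 1 at 5% O2.

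The assembly factors with the highest values with NAC were SDHAF4 (1.34 ± 0.23), which helps mature SDHA, LYRM7 (1.18 ± 0.29), which chaperones the Rieske protein, HIGD1A (1.13 ± 0.10) and COX11 (0.99 ± 0.09), which delivers copper to complex IV. SDHAF4 stood at 15.9 and 10.7 CPM and LYRM7 at 18.5 and 38.2 in the NAC replicates, so the replicates differed in opposite directions. Without replicate 1 these 4 genes stood at 1.03, 1.61, 1.17 and 1.00, and all 4 were called.

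Of 86 tested cytosolic ribosomal protein genes, 74 rose and 0 fell with NAC (median 0.65), and 39 rose at 5% O2. When NAC replicate 1 was left out, 71 rose. With the trend removed 51 rose and 3 fell with NAC (median 0.35), and 10 rose and 1 fell at 5% O2. The difference between this list and the 40 members was not tested.

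Of 12 transcriptional regulators of the respiratory chain, 5 rose and 5 fell with NAC, as also without replicate 1. The coactivator genes PPARGC1B (−1.06 ± 0.12) and PPRC1 (−0.97 ± 0.12) fell, and TFB1M (0.85 ± 0.12) and TFB2M (0.78 ± 0.11), which serve mitochondrial ribosomal RNA and transcription, rose. Of the factors whose motifs were searched, GABPA rose from 40.6 and 36.9 CPM to 60.6 and 54.7 (0.57 ± 0.11, adjusted p = 0.00162). YY1 fell from 205 and 204 CPM to 174 and 162 (−0.28 ± 0.08, adjusted p = 0.0122). NRF1 overlapped between the groups (0.08 ± 0.11, adjusted p = 0.591).

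With the length and GC trend removed, 3 regulators rose and 2 fell with NAC, and GABPA (0.15) and YY1 (0.02) were not called. At 5% O2, GABPB1 (0.41) and TFAM (0.34), which packages mitochondrial DNA, rose and PPARGC1B (−0.51) fell. With the trend removed these 3 stood at 0.29, 0.20 and −0.19, and edgeR called none of the 3.

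Of 8 tested genes known to answer to low oxygen, most of them mitochondrial, 4 were higher at 5% O2, against 3.68% of all genes. PDK1, which restrains entry of pyruvate into the mitochondrion's cycle, stood at 12.3 and 11.5 CPM in untreated KO cells and 103 and 91.8 at 5% O2 (3.04 ± 0.26, adjusted p = 1.4e-04). BNIP3 and BNIP3L, mitophagy receptors, rose by 2.53 and 1.45, and HIGD1A by 0.46. MXI1 (0.53 ± 0.18), NDUFA4L2 (1.63 ± 0.80), LONP1 (0.02) and ISCU were not called, and COX4I2 was too low to test. With the length and GC trend removed 3 were called higher, and HIGD1A (0.21) was not.

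With NAC against untreated KO cells, 4 of these 8 genes were higher and 1 lower, and 3 and 1 without replicate 1. HIGD1A rose by 1.13, PDK1 by 1.19, BNIP3L by 0.91 and BNIP3 by 0.63, and LONP1 fell (−0.70). With the length and GC trend removed, 2 of the 8 were higher and 1 lower, against 15.1% of all genes higher. The median of the 8 went from 0.52 to 0.10. Some of these genes differed between the 2 replicates and others did not. PDK1 stood at 36.6 and 17.3 CPM and BNIP3 at 151 and 76.8 CPM in replicates 1 and 2. BNIP3L stood at 83.9 and 56.8 CPM and MXI1 at 20.2 and 13 CPM. In all of these the higher value was in the library that held the mesenchymal transcripts. NDUFA4L2, with few counts, was lower there (0.0522 and 0.267 CPM). HIGD1A (217 and 230 CPM), LONP1 (153 and 150) and ISCU (51.3 and 51.8) were close. Without replicate 1, PDK1 was at 0.54 and called, and BNIP3 at 0.06 and not called. The members' medians in those libraries were close, at 0.51 and 0.45 relative to WT cells.

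**Figure D5:**
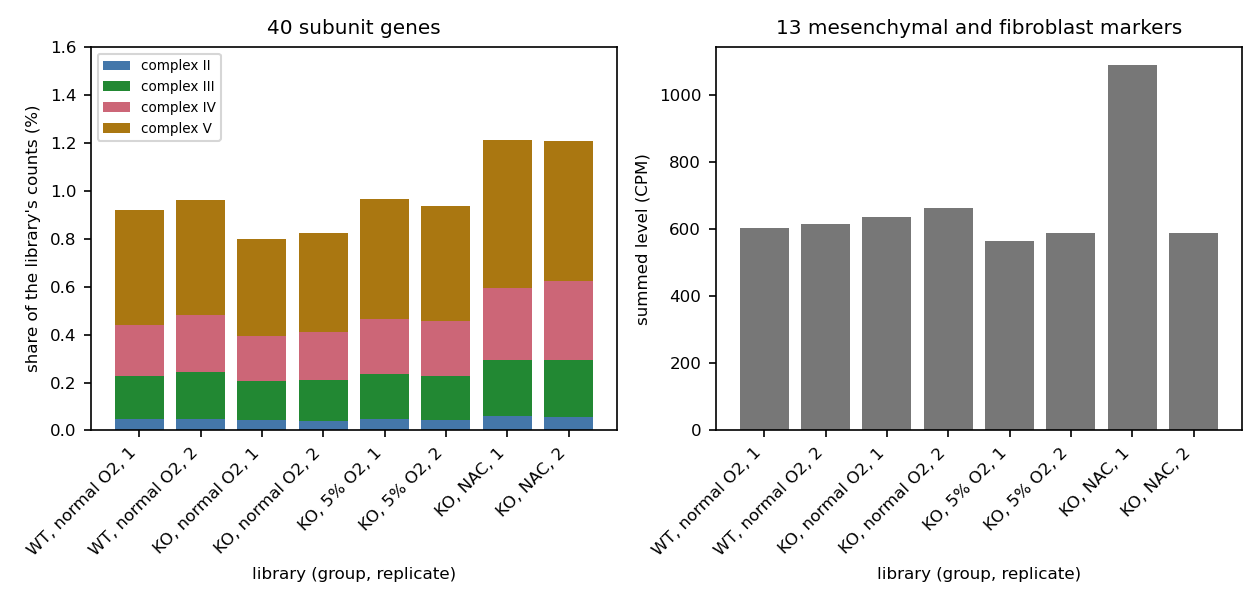
Share of each library's counts in the 40 subunit genes, stacked by complex (left), and summed CPM of 13 mesenchymal and fibroblast markers (right), in the 8 libraries. The NAC libraries have like shares, 1.210% and 1.207%, while the marker sum is 1090 CPM in replicate 1 and 589 in replicate 2.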

How the data were processed

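The deposited values are raw read counts per gene, which the authors made from trimmed reads with HISAT2 and featureCounts on hg38; the annotation is not stated. FastQC 0.11.9 is also named. All 8 libraries were fitted together in edgeR 4.0.16 (R 4.3.3) with TMM scaling, 1 mean per group and the quasi-likelihood test. Genes passed filterByExpr at a minimum count of 10. P-values were adjusted by Benjamini-Hochberg over all 15916 genes tested, and genes with an adjusted p under 0.05 were called. The groups of 2 leave 4 residual degrees of freedom, and SE is the absolute log2 fold change over the square root of its F value. DESeq2 1.42.0 was the second tool. Length and GC content came from GENCODE canonical transcripts, known for 97.2% of tested genes and all members, and their trend was fitted with mgcv 1.9.3. Replicate numbers were not used as pairs.

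The members and lists were chosen with earlier results of these data known. For each comparison the text names the highest and lowest member of each complex and those against the sign of the median. COX7A2, COX6C and other members outside that rule were named after their values were seen. Mapping, library scaling, transcript composition and the stray mesenchymal transcripts could each shift these values, and RNA levels say nothing of protein or of respiration.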

Additional observations from a re-analysis of the deposited data

How the results depend on the processing

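The counts and medians of the members, and log2 fold changes of UBQLN1 and single members, were computed again with other choices. Of the counts and medians of the members, 153 were close to the value reported and 51 moved. Of the log2 fold changes of UBQLN1 and single members, 510 kept their direction and call, 55 lost a call, 23 gained one and 23 changed sign. The cause of these differences was not tested.

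In KO against WT at normal O2, DESeq2 called 10 members lower (2.08% of all genes), no filter on low counts 11 (2.22%), a filter of 10 counts in every library 1 (0.753%) and a fit of the 2 groups compared alone 8 (2.49%), against 0 as reported (0.622%). With the replicate number as a block it was 1, ATP5MC1. The removal of the length and GC trend gave 1, ATP5F1A, with or without the block. The median was then −0.12, and −0.11 with the block. Leaving out 1 library at a time, the median ranged from −0.29 (without KO replicate 2) to −0.17. In such fits the lone sample of a group was assumed to vary like the other groups. COX7B, at 0.01 as reported, was −0.02 with upper quartile scaling, 0.00 with the block, and −0.14 to 0.14 leaving out 1 library. UQCRH was 0.10 with the trend removed, with or without the block.

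In NAC against untreated KO, removal of the trend gave 21 members higher and a median of 0.33, and the same values with the block. Without NAC replicate 1 as well, a choice made after seeing the data, it gave 25 higher (15.3% of all genes) and a median of 0.37. Leaving out 1 library, 0 to 1 members were called lower, ATP5F1D in each case. UQCRH was −0.10 with the trend removed and with the block, and −0.09 without NAC replicate 1 as well. ATP5F1D was 0.11, 0.11 and 0.14 in the same 3 fits. Of the 36 members called higher, 18 were called in all 14 alternatives, and 33 in those that leave the trend in.

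In 5% against normal O2, DESeq2 called 25 members higher (7.7% of all genes), no filter 23 (4.91%) and a fit of the 2 groups alone 27 (9.53%), against 12 (3.68%). Leaving out 1 library gave 0 to 2. Removal of the trend gave 2 and a median of 0.14, and the same with the block. SDHD was then −0.01 in both fits. ATP5F1E ranged from −0.92 to 0.01 (without KO replicate 2). None of the 12 members was called in every alternative.

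In NAC against 5% O2, leaving out 1 library gave 12 to 27 members higher and 0 to 1 lower, against 30 and 1. Removal of the trend gave 10 higher, 0 lower and a median of 0.21, and 9, 0 and 0.21 with the block. Without NAC replicate 1 as well it gave 15 higher (9.4% of all genes), 1 lower (ATP5PF; 9.19%) and a median of 0.19. UQCRH was −0.11, −0.11 and −0.12 in these 3 fits. UBQLN1, at 0.17 as reported, ranged from −0.02 (without NAC replicate 1) to 0.33, and was −0.12 without that library and the trend.

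In NAC against WT, DESeq2 and the fit with no filter each called 1 member lower, and leaving out 1 library 0 to 1, ATP5F1D in each case. Removal of the trend gave 14 members higher and a median of 0.21, and 13 and 0.21 with the block. Without NAC replicate 1 as well it gave 19 higher (13.8% of all genes), 1 lower (ATP5PF; 9.91%) and a median of 0.26. ATP5F1D was 0.07, 0.07 and 0.10 in these 3 fits.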
